A study of Mus musculus with 25 samples.

Results

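The Eya and sine oculis homeobox network was followed through 7 genes across the forming secondary palate of the mouse: Eya1, Eya2, Eya3, Eya4, Six2, Six4 and Six5. These were taken by gene symbol, each symbol matching 1 row, so the members are 7 of the 37406 genes measured. The sine oculis homeobox proteins are homeodomain transcription factors, and Eya proteins are coactivators that cannot bind DNA themselves and are brought to it by such a partner. Eya proteins also carry a phosphatase domain. Dach corepressors and Pax factors act with the pair, and the network is known for the development of ear, kidney, muscle and the craniofacial skeleton.

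Libraries were labelled as wild type CD1 embryos at E14.5, when the palatal shelves are forming the roof of the mouth. Laser capture microdissection divided the anterior and the posterior palate into medial and lateral and, in a second way, into oral and nasal compartments. Medial and lateral pieces therefore cover the same shelf area as oral and nasal pieces. Each of the 8 compartments had 3 libraries except anterior nasal, which had 4, giving 13 anterior and 12 posterior libraries. The study calls its replicates biological, but the labels do not tie libraries to animals. Whether compartments share embryos is therefore not known. The p-values measure only the spread between these libraries, which may be in part technical. In such tissue pieces, fewer cells of a type and less RNA per cell cannot be told apart.

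Values are RPKM (reads scaled to transcript length and to the library's mapped reads), a scale on which genes of different length can be set side by side. Differences are on the log2(RPKM + 0.1) scale with standard errors (SE), and a gene is called at a Benjamini-Hochberg adjusted p under 0.05 in limma over all genes tested. The implied depth was 1640000 to 6560000 reads per library, so that a transcript of 2000 bases at 10 RPKM rests on 32.8 to 131 reads, a counting error of 17.5% down to 8.73%. These totals are estimates from the RPKM values and lie well below the average number of reads that the study's methods state for its samples. Duplicate and multiply aligned reads had been removed, and whether this makes up the gap was not tested. The labelled tissue was borne out by 6 of 6 palate mesenchyme markers at 5 RPKM or more in every library. Barx1, a mark of the posterior palate, ran from 0 to 8.41 RPKM in anterior and from 48.9 to 123 in posterior libraries, and Alx1, a mark of the anterior palate, from 39.0 to 99.99 and from 0 to 5.41 RPKM. Posterior medial replicate 2 and anterior oral replicate 1 stood apart, with a median correlation with their own replicates of 0.652 and 0.703 against 0.725 to 0.926 for the other libraries. In the former 7.54% of the expressed genes were listed at 0. For some of the results that use this pair, values without it are given as well.

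By their calls along the anterior-posterior axis the members fell into 3 kinds. Eya1 was lower in the posterior palate, Eya4 and Six2 were higher, and Eya3, Six5, Eya2 and Six4 were not called in the pooled comparison. Those not called were not alike: Six4 missed the threshold narrowly in that comparison, with an adjusted p of 0.0598 in limma. Of all genes, 3.34% were called there (288 of 8625, with 144 higher, 1.67%, and 144 lower, also 1.67%), and 3 of the 7 members were. After centring each library on its median the split over all genes was 115 higher and 180 lower. The members' median difference was 0.15, beside 0.03 over all genes tested. Eya2 lay below the expression minimum of 10 RPKM in 6 libraries and the other 6 members passed it. In the plot of levels by compartment, each library is a point.

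**Figure D1:**
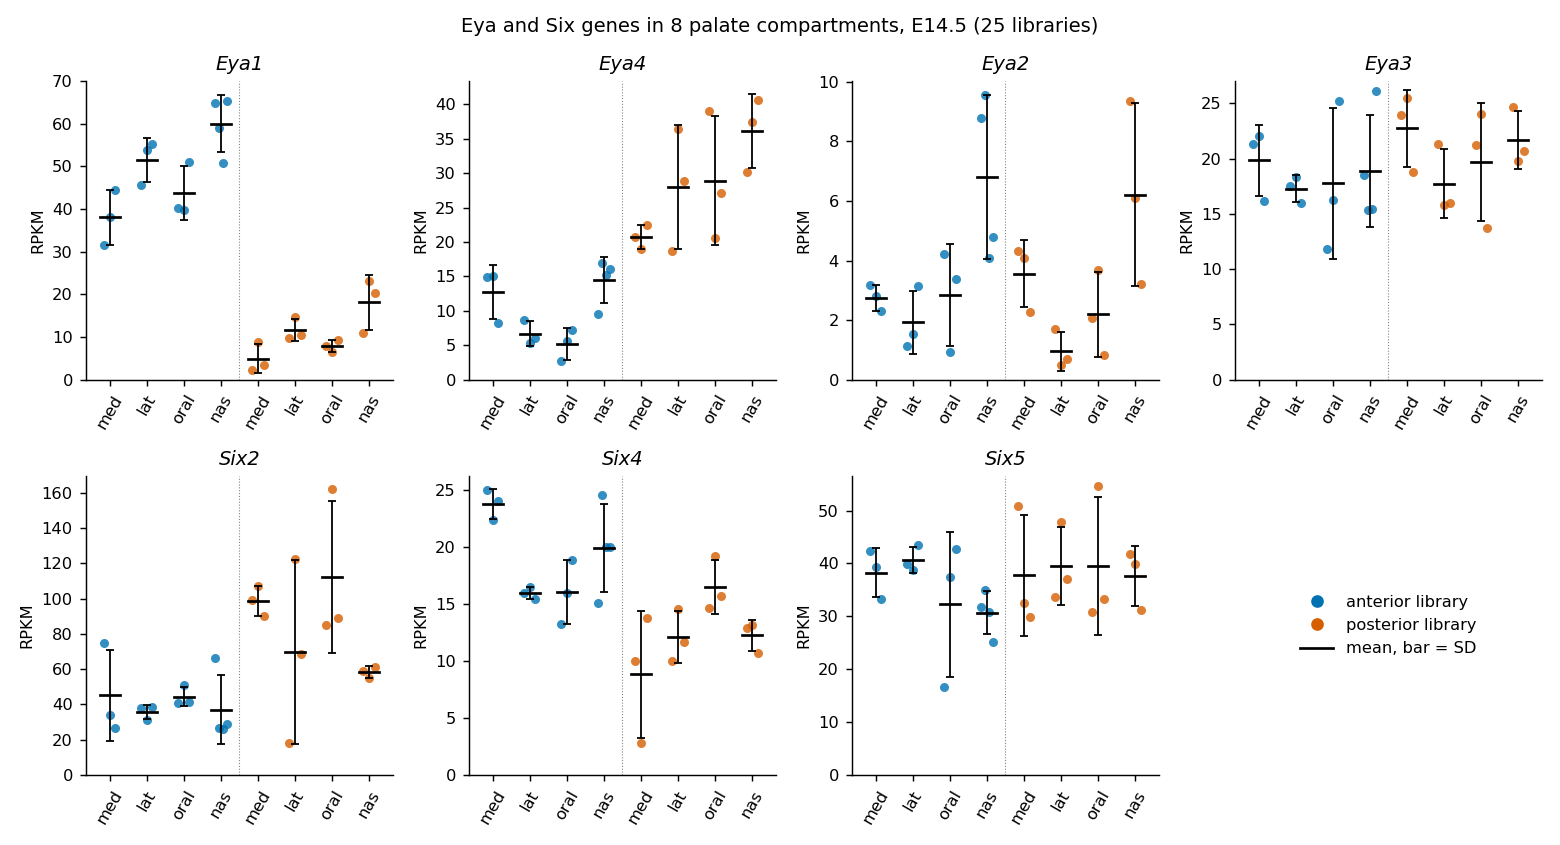
RPKM of the 7 genes in each library (points) with the compartment mean (line) and SD (bar), for the medial (med), lateral (lat), oral and nasal (nas) compartments of the anterior palate on the left and the posterior palate on the right of each panel. Eya1 lies between 31.5 and 65.3 RPKM in anterior and between 2.40 and 23.1 in posterior libraries, and Eya4 between 2.74 and 17.0 and between 18.6 and 40.6.

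Eya1 (gene ID 14048; mm9 chromosome 1, 14159039 to 14300280), the member whose mutation causes branchio-oto-renal syndrome in humans, was the most abundant Eya gene of the anterior palate. It stood at 31.5, 38.1 and 44.5 RPKM in anterior medial, at 45.7, 53.8 and 55.2 in anterior lateral, at 40.3, 39.9 and 51.0 in anterior oral, and at 64.9, 59.1, 50.9 and 65.3 in anterior nasal libraries. Posterior medial libraries held 2.40, 8.81 and 3.57 RPKM, posterior lateral 9.90, 14.6 and 10.5, posterior oral 7.90, 6.396 and 9.39, and posterior nasal 10.9, 23.1 and 20.4. Every anterior library was above every posterior one, a separation that 0.267% of all genes tested showed in either direction. The pooled difference was -2.41 (SE 0.26, adjusted p = 6.45e-07), or 5.30-fold lower in the posterior palate.

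Within each side Eya1 kept a similar order of compartments. Nasal was highest on both sides, at 60.03 ± 6.72 RPKM (SD, n = 4) in the anterior and 18.1 ± 6.40 (SD, n = 3) in the posterior palate, then lateral, oral and medial. Medial was lowest, with 38.0 ± 6.54 and 4.93 ± 3.42 RPKM. Neighbours in the order of all 8 compartments overlapped except at the step from anterior medial to posterior nasal and from posterior lateral to posterior oral.

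The difference along the axis was called in each of the 4 kinds of compartment taken alone. Eya1 was lower in the posterior palate by 3.12 (SE 0.35, adjusted p = 2.03e-05) in medial, 2.15 (SE 0.35, adjusted p = 0.00201) in lateral, 2.46 (SE 0.35, adjusted p = 6.47e-04) in oral and 1.78 (SE 0.32, adjusted p = 0.00468) in nasal pieces, all on the log2 scale. Of all 11925 genes tested, 1.67%, 0.864%, 0.512% and 1.9% were called in these comparisons. Those called lower made up 0.872%, 0.335%, 0.243% and 1.21%, and those with separate groups in either direction 12.5%, 19.2%, 8.9% and 20.2%. The median of all genes was itself displaced by -0.12, 0.11 and 0.11 in the medial, oral and nasal comparisons, small beside the Eya1 values. Without the 2 libraries that stand apart, an alternative chosen after seeing the data, the medial difference was -3.64 and the pooled one -2.42. The nasal call was lost without posterior nasal replicate 1 (adjusted p = 0.0541).

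Eya4 (gene ID 14051; chromosome 10, 22823974 to 23070592), a paralogue linked to inherited hearing loss and cardiomyopathy, ran the other way. Anterior medial libraries held 14.99, 15.02 and 8.18 RPKM, anterior lateral 8.73, 5.39 and 5.99, anterior oral 2.74, 5.57 and 7.25, and anterior nasal 9.54, 17.0, 15.1 and 16.1. In the posterior palate it stood at 20.7, 19.0 and 22.4 RPKM in medial, at 18.6, 36.5 and 28.8 in lateral, at 39.0, 20.6 and 27.1 in oral, and at 30.2, 37.4 and 40.6 in nasal libraries. All posterior libraries were above all anterior ones. The pooled difference was 1.60 (SE 0.25, adjusted p = 1.29e-04), a 3.03-fold higher level in the posterior palate.

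By compartment Eya4 was higher in the posterior palate by 2.51 (SE 0.35, adjusted p = 6.47e-04) in oral, 2.02 (SE 0.35, adjusted p = 0.00409) in lateral and 1.34 (SE 0.33, adjusted p = 0.0398) in nasal pieces. Without the 2 libraries that stand apart, the oral difference was 2.12 (adjusted p = 0.00384). In medial pieces the difference was 0.75 (SE 0.35, 95% confidence interval 0.01 to 1.48) and was not called, with an adjusted p of 0.338. Genes called higher made up 0.797% in medial, 0.528% in lateral, 0.268% in oral and 0.696% in nasal comparisons. Whether the lateral difference exceeded the medial one was tested directly: the 2 differed by 1.28 (95% confidence interval 0.23 to 2.32), with an adjusted p of 0.862. The nasal call is the weakest of the 3, being lost in 14 of the 31 alternative fits, with adjusted p-values from 0.00938 to 1.00.

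Markers of cartilage moved with Eya4 in some of the pieces. The summed level of 4 cartilage markers, of which 3 reached 5 RPKM in at least 1 library and none in all, ran from 7.67 to 35.1 RPKM in anterior and from 22.3 to 81.5 in posterior libraries. In the 3 kinds of pieces where Eya4 was called, the anterior and posterior sums were separate too, at 9.03 to 11.4 and 28.8 to 36.6 RPKM in lateral, 7.67 to 14.4 and 26.8 to 51.7 in oral, and 21.9 to 30.6 and 46.1 to 81.5 in nasal pieces. In medial pieces, where Eya4 was not called, they were 18.9 to 35.1 and 22.3 to 45.5 and overlapped. Eya4 itself was separate in medial pieces, at 8.18 to 15.02 RPKM in anterior and 19.0 to 22.4 in posterior libraries. By separation of groups, the cartilage sums therefore did not follow Eya4 there. The part of these cells in the Eya4 result was not tested. The 4 bone markers summed to 288 to 422 RPKM in posterior nasal libraries and to 15.9 to 115 in all others of both sides, and their part was likewise not tested. For skeletal muscle, a tissue in which this network acts, 10 markers, of which 5 reached 5 RPKM in any library, summed to 6.20 to 101 RPKM in anterior and 3.94 to 156 in posterior libraries, with Myf5 under 1 RPKM throughout. The 8 epithelial markers summed to 39.4 to 140 and 20.2 to 123 RPKM. In lateral pieces they were separate and lower posteriorly, at 39.4 to 85.9 and 20.2 to 36.9. Nerve and Schwann cell markers were as well, at 18.1 to 22.0 and 11.7 to 15.1, and both sets overlapped in the other pieces. Bone markers were separate in oral pieces too, at 22.2 to 33.9 in anterior and 49.6 to 75.3 in posterior libraries. The part of these cell types was not tested.

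With Eya1 lower and Eya4 higher in the posterior palate, the makeup of the Eya pool differed between the sides. The 4 Eya genes summed to 81.7 ± 15.7 RPKM (SD, n = 13) in anterior and 62.8 ± 13.7 (SD, n = 12) in posterior libraries, with ranges that overlap. Eya1 made up 44.3% to 68.7% of this sum in anterior and 4.67% to 26.8% in posterior libraries. For Eya4 the shares were 4.65% to 21.1% and 33.1% to 55.6%. Eya1 was the highest Eya gene in 13 of 13 anterior libraries. Posterior libraries had Eya4 highest in 8 and Eya3 highest in 4 of 12. The log2 ratio of Eya4 to Eya1 ran from -3.88 to -1.07 in anterior and from 0.69 to 3.11 in posterior libraries. These shares restate the levels above and carry no test of their own.

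**Figure D2:**
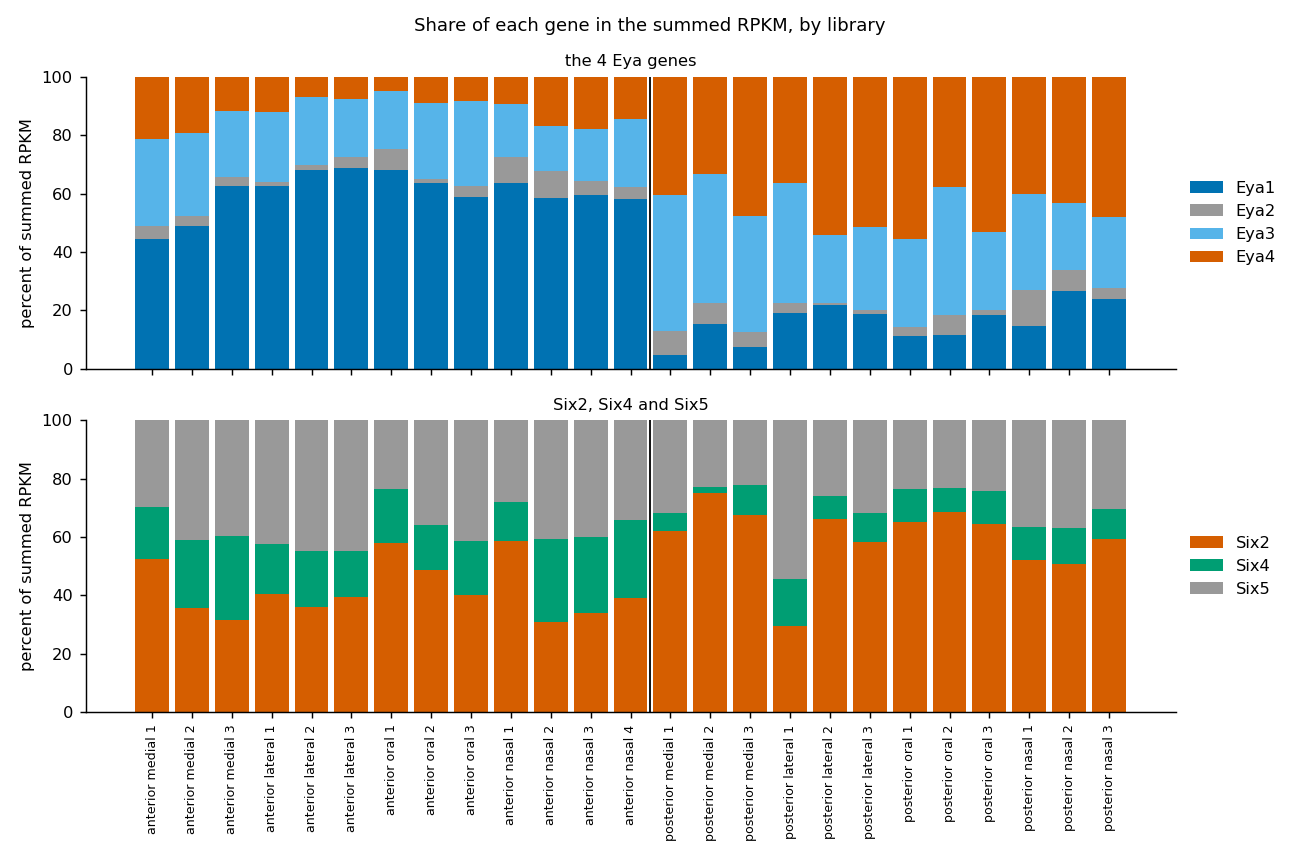
Share of each gene in the summed RPKM of the 4 Eya genes (top) and of the members Six2, Six4 and Six5 (bottom), 1 bar per library, with the 13 anterior libraries left of the black line and the 12 posterior ones right of it. Eya1 takes 44.3% to 68.7% of the anterior bars and 4.67% to 26.8% of the posterior ones.

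Eya3 (gene ID 14050; chromosome 4, 132194961 to 132280678), the most broadly expressed of the family, varied least of the Eya genes. Its 25 values ran from 11.8 to 26.1 RPKM with a median of 18.8, and no pair of neighbouring compartments was separate. The posterior palate was higher by 0.16 (95% confidence interval -0.10 to 0.41, adjusted p = 0.604), an interval that reaches no further than 0.41 on the log2 scale.

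Eya2 (gene ID 14049; chromosome 2, 165420528 to 165597131), known from limb muscle and sensory placodes, was the least abundant member. It ran from 0.484 to 9.55 RPKM and reached 5 RPKM in 4 of 25 libraries. Those libraries were nasal: 2 of 4 anterior nasal and 2 of 3 posterior nasal ones. The nasal means were 6.81 ± 2.76 RPKM (SD, n = 4) anteriorly and 6.22 ± 3.07 (SD, n = 3) posteriorly, and the lowest, in posterior lateral, was 0.960 ± 0.651 (SD, n = 3). Eya2 was not called in any of the 11 comparisons, and its pooled difference of -0.38 had a 95% confidence interval of -1.23 to 0.48.

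Six2 (gene ID 20472; chromosome 17, 86083608 to 86087594), a factor that holds kidney nephron progenitors in an undifferentiated state, was the most abundant member and was higher in the posterior palate. Anterior libraries ran from 26.2 to 74.7 RPKM with a median of 37.9, and posterior ones from 18.3 to 162 with a median of 87.3. Posterior medial libraries held 99.2, 107 and 90.2 RPKM and posterior nasal ones 59.2, 54.96 and 61.2. The other posterior pieces were less even, with 18.3, 122 and 68.4 RPKM in lateral and 85.3, 162 and 89.2 in oral libraries. Posterior lateral replicate 1, at 18.3, was the lowest of all 25 libraries, and anterior medial replicate 1 and anterior nasal replicate 1, at 74.7 and 66.5, were the highest of their side.

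The pooled Six2 difference was 0.99 (SE 0.25, adjusted p = 0.0217), 1.99-fold, with overlapping groups. With sequencing run as a covariate it was no longer called, with an adjusted p of 0.161; over the 33 alternatives the adjusted p ranged from 3.52e-04 to 0.161, the lowest being without posterior lateral replicate 1. By compartment the differences were 1.27 in medial, 0.58 in lateral, 1.28 in oral and 0.78 in nasal pieces, all in 1 direction and none called, with adjusted p-values of 0.279 to 1.00.

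**Figure D3:**
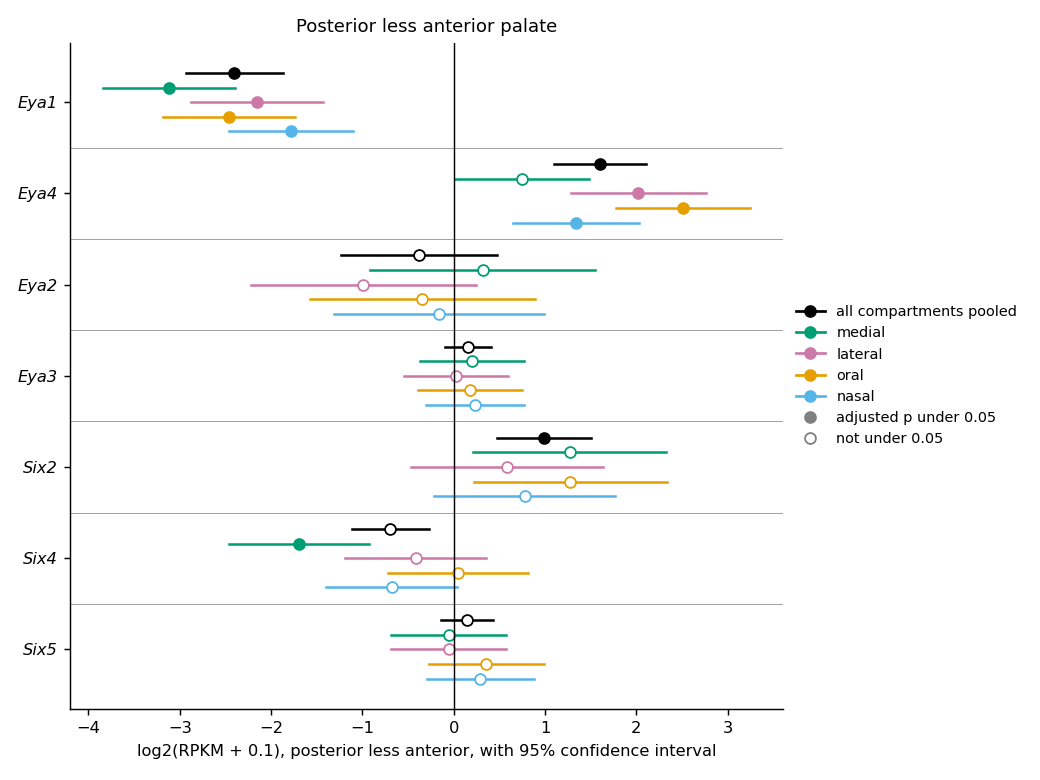
Difference in log2(RPKM + 0.1), posterior less anterior, for each gene with its 95% confidence interval, for all compartments pooled (black) and for medial, lateral, oral and nasal pieces. Filled points have an adjusted p under 0.05 in limma; Eya1 has 5 of them, Eya4 4, Six2 and Six4 1 each, and the other genes none.

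Since Eya4 and Six2 were the members called higher in the posterior palate, the sequence upstream of their starts is shown. RefSeq promoters on GRCm38.p6, a later build than the table's mm9, matched 5 of the 7 members by gene symbol, and Eya1 and Eya2 are named only. In Six2, the 250 bases before the start, chr17:85688255-85688504 on the minus strand, held 4 copies of the homeodomain core ATTA (either strand), shown in capitals, of which 3 lie within a run of overlapping or abutting matches from 45 bases before the start.
Six2: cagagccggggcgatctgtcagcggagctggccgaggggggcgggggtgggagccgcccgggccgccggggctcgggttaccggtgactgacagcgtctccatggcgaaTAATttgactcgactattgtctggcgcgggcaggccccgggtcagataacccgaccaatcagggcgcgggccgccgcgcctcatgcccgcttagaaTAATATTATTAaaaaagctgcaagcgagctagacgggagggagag
The 250 bases before the distal of 2 Eya4 starts, chr10:23349944-23350193 on the minus strand, held no ATTA and 1 GC box (GGGCGG on either strand), 20 bases before the start and shown in capitals.
Eya4: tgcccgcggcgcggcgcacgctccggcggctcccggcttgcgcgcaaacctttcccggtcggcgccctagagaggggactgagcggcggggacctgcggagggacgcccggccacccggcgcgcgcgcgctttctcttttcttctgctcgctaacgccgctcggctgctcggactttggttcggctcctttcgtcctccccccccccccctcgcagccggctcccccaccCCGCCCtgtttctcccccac
Over 32851 promoter entries, 54.9% held ATTA and 32.7% held GGGCGG in these 250 bases. Both motifs are common, and a match is a description of the letters only. The Six2 stretch also held 2 GC boxes, left in lower case, and Eya3, Six4 and Six5 held GC boxes in theirs.

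Six4 (gene ID 20474; chromosome 12, 74201246 to 74214232), which acts in muscle precursors, was lower in the posterior palate in medial pieces. It stood at 24.98, 22.4 and 24.0 RPKM in anterior medial and at 9.98, 2.77 and 13.7 in posterior medial libraries, without overlap, as for 12.5% of all genes in that comparison. The difference was -1.70 (SE 0.37, adjusted p = 0.0175). The lowest value belongs to posterior medial replicate 2, a library that stands apart; without it and anterior oral replicate 1 the difference was -1.02 (adjusted p = 0.0137). The call was lost on leaving out any 1 of the 3 anterior medial libraries, with an adjusted p of up to 0.0745. In lateral, oral and nasal pieces the differences were -0.42, 0.05 and -0.68, with adjusted p-values of 1.00, 0.979 and 0.459. Without the pair that stands apart the nasal difference was called (adjusted p = 0.0252). The pooled difference of -0.69 (SE 0.20) missed the threshold with an adjusted p of 0.0598, and was called in 7 of 33 alternatives, among them the fit without the pair that stands apart (-0.55, adjusted p = 0.00480). With sequencing run as a covariate the adjusted p was 0.504.

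Sine oculis homeobox proteins bind sites close to TCAGGTTTC, the MEF3 motif of muscle genes, and Six4 was the only 1 of the 5 members with promoter entries to hold these letters, read on either strand. They lie 99 bases before the proximal of 2 Six4 starts, chr12:73113325-73113354 on the minus strand, where the 30 bases shown have the motif in capitals in its reverse complement.
Six4: tggcctggggGAAACCTGAtcggccagatc
Of all promoter entries, 0.429% held this motif within their 300 bases.

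Six5 (gene ID 20475; chromosome 7, 19679893 to 19683694), the neighbour of the myotonic dystrophy kinase gene Dmpk, was even over the palate. Its values ran from 16.7 to 54.6 RPKM with a median of 37.0, and compartment means lay between 30.7 and 40.7. The lowest value was in anterior oral replicate 1, the shallowest library and 1 of the 2 that stand apart. The posterior palate was higher by 0.15 (95% confidence interval -0.14 to 0.43, adjusted p = 0.677). Dmpk differed by -0.02 in the same comparison, adjusted over the same genes and not called.

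Sequencing run was followed because anterior and posterior libraries were unevenly spread over 8 runs, read from the names of the alignments in the study's tables. These names hold the word ERK2 or Tgfbr2 beside WT for 6 libraries and Zymo or SDS for another 2, all 8 labelled as wild type CD1, and whether ERK2 and Tgfbr2 stand for a strain or cross is not given in the sources used here. Without those 8 libraries, an alternative chosen after seeing the data, the pooled difference was -2.06 for Eya1 (adjusted p = 5.07e-04), 1.81 for Eya4 (adjusted p = 0.00256) and 1.22 for Six2 (adjusted p = 0.00648). In 3 runs both sides were present, and in the run of 2 anterior and 2 posterior libraries all 4 names hold Tgfbr2. Within them, Eya1 was lower in every posterior than in every anterior library, by 2.62, 2.14 and 1.91 on the log2 scale, and Eya4 was higher in every one, by 1.66, 1.00 and 2.52. Six2 was higher by 1.04, 1.22 and 1.06, with overlap in the run of 3 anterior and 5 posterior libraries. Six4 was lower by 0.49, 1.12 and 0.34 without overlap. Eya3, not called in the pooled comparison, was also separate in the run of 2 anterior and 2 posterior libraries, at 25.2 to 26.1 and 21.2 to 24.7 RPKM. Groups this small often separate by chance, and the share of all genes that did so was not counted. Compartments are not balanced within these runs, and with 1 to 5 libraries a side no test was made. In the fit with run as a covariate, Eya1 (adjusted p = 1.68e-04) and Eya4 (adjusted p = 0.00548) were called in the pooled comparison, and of the compartment comparisons only Eya1 in medial (adjusted p = 0.00331) and in oral pieces (adjusted p = 0.0438).

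**Figure D4:**
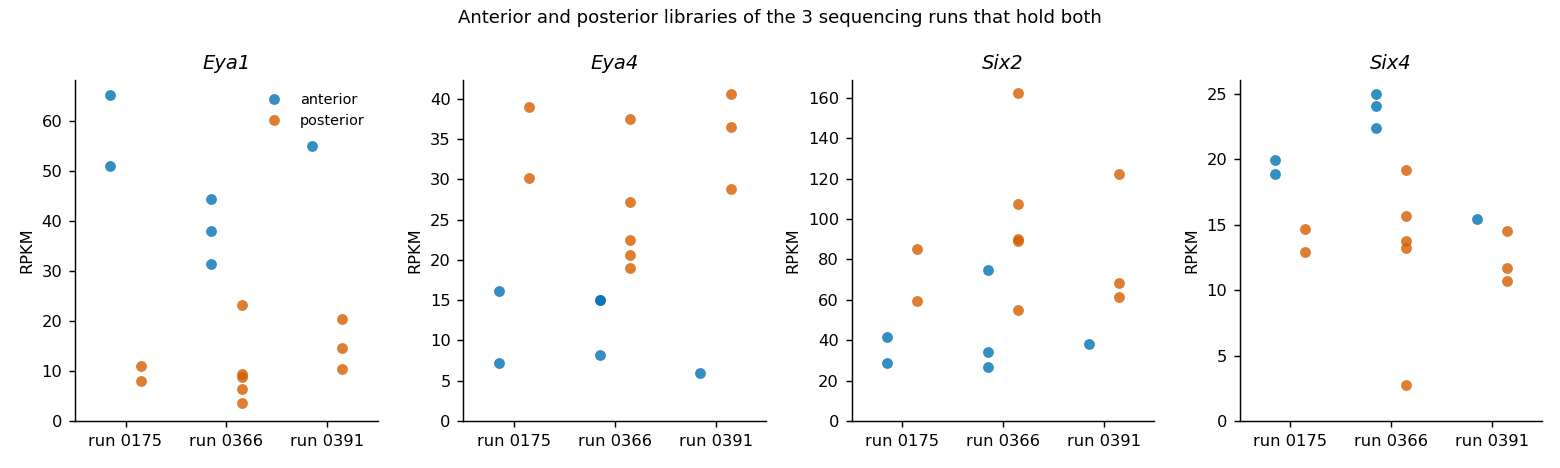
RPKM of Eya1, Eya4, Six2 and Six4 in the anterior and posterior libraries of the 3 sequencing runs that hold both. In each run the Eya1 points of the posterior libraries lie below, and the Eya4 points above, those of the anterior libraries.

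Across the shelf, Six4 was the only member called in any of the 4 comparisons of neighbouring compartments. It was lower in anterior lateral (16.0, 16.5 and 15.5 RPKM) than in anterior medial libraries (24.98, 22.4 and 24.0), by 0.57 on the log2 scale (SE 0.11, adjusted p = 0.0412). Of 10442 genes, 2.49% were called in that comparison and 21.3% had groups that do not overlap. The Six4 call held in 3 of 13 alternatives, with adjusted p-values from 0.0360 to 1.00, and was lost on leaving out any 1 of the 6 libraries. Markers of other cell types were separate in the same comparison: nerve and Schwann cell markers summed to 38.1 to 61.8 RPKM in anterior medial and 18.1 to 22.0 in anterior lateral libraries, cartilage markers to 18.9 to 35.1 and 9.03 to 11.4, and endothelium markers to 85.8 to 100.2 and 115 to 133. Their part in the Six4 result was not tested.

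The other members differed across the shelf in ways that did not pass the test over all genes. In anterior pieces Eya1 was higher in lateral than in medial libraries by 0.45 without overlap (adjusted p = 0.233), and Eya4 was lower by 0.89 (adjusted p = 0.177). In posterior pieces Eya1 was higher in lateral by 1.42 and Eya2 lower by 1.91, both without overlap and both with an adjusted p of 0.957. That comparison called 0 of 10339 genes (0%) in limma, with 162 at an unadjusted p under 0.05, and 6.64% of genes had separate groups. Without the pair that stands apart, Eya1 differed there by 1.94 and Eya2 by -1.79, neither called. For oral against nasal, Eya4 was lower in anterior oral by 1.53 without overlap (adjusted p = 0.764) and Eya2 by 1.37 (adjusted p = 1.00). Limma called 0 of 10699 genes (0%) there, with 321 at an unadjusted p under 0.05, and 3.66% were separate. Without the pair, Eya4 differed between anterior oral and nasal pieces by -1.14 and Eya2 by -1.77, neither called.

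In the posterior palate 1.26% of 10601 genes were called between oral and nasal pieces (0.604% higher and 0.66% lower in oral) and 11.8% were separate. None of the members was called. Eya1 was lower in oral pieces by 1.14 (adjusted p = 0.206) and Eya2 by 1.55 (adjusted p = 0.391), while Six2 was higher by 0.88 (adjusted p = 0.313). Eya1, Six2 and Six4 had separate groups. The Eya2 estimate was thus lower in oral than in nasal pieces on both sides, with overlapping groups and no call on either. Its difference between the sides was -0.18 with a 95% confidence interval of -1.87 to 1.51, too wide to tell whether the sides are alike. Tests of whether the lateral-medial or the oral-nasal difference changed from anterior to posterior called none of the members, beside 0.0922% (0.0503% higher, 0.0419% lower) and 0.0755% (0.0503% higher, 0.0252% lower) of all genes.

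**Figure D5:**
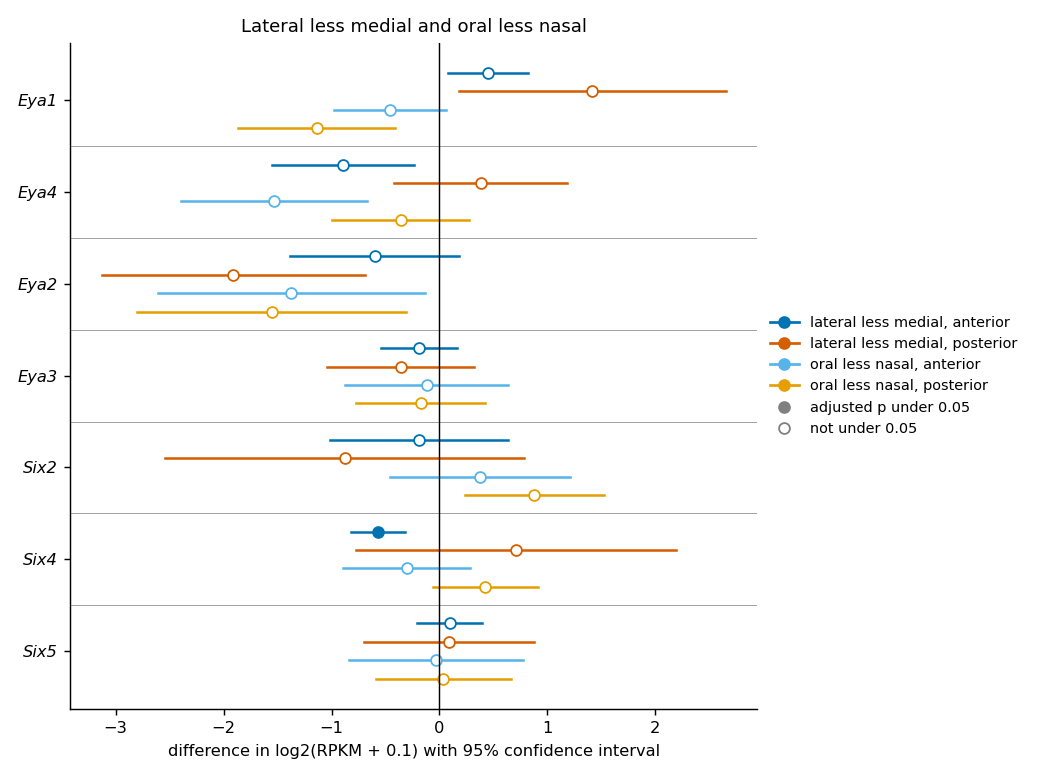
Difference in log2(RPKM + 0.1) with its 95% confidence interval for lateral less medial and oral less nasal pieces of the anterior and the posterior palate, for each gene. The only filled point, an adjusted p under 0.05 in limma, is Six4 in anterior lateral against medial pieces (-0.57).

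Partners and reported targets of the network were taken from fixed lists. Of 7 Pax genes, 2 passed the minimum: Pax9, a regulator of palate outgrowth, at 41.6 to 145 RPKM and not called, and Pax3, a neural crest regulator. Pax3 was lower in posterior than in anterior libraries by 2.57 on the log2 scale (SE 0.30, adjusted p = 1.96e-06), with 23.4 to 54.5 against 2.26 to 19.7 RPKM. Like Eya1, it was called in each of the 4 compartments. In the posterior palate Pax3 was lower in oral than in nasal pieces by 2.00 (adjusted p = 0.0113).

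Dach corepressors were scarce. Dach1 and Dach2 lay below the expression minimum in every comparison and were tested only as listed genes. Dach2 stayed under 1.29 RPKM. Dach1 held 0.251 to 1.07 RPKM in anterior libraries. In posterior medial pieces it stood at 4.68, 25.1 and 3.66 RPKM, the highest value being that of replicate 2, which stands apart. It was higher there than in anterior medial pieces by 3.57 on the log2 scale (SE 0.60, adjusted p = 0.00232), a call held in 31 of 31 alternatives. Without the pair that stands apart the difference was 2.71 (adjusted p = 0.00884). In the posterior palate Dach1 was also higher in oral than in nasal pieces, by 2.34 (adjusted p = 0.0212), a call held in 4 of 13 alternatives. It rests on low values, 1.23 to 2.98 RPKM in oral and 0.225 to 0.439 in nasal libraries. Six3 and Six6, genes of the forebrain and eye, stayed under 3.67 and 1.38 RPKM.

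Of 13 cofactors, 12 passed the minimum, and 2 were called in the pooled comparison. Tle1 and Tle2, Groucho corepressors that bind sine oculis homeobox proteins, were higher in the posterior palate by 0.36 (adjusted p = 0.0376) and 0.64 (adjusted p = 0.0349), calls that held in 16 and 19 of 33 alternatives. Among 9 reported targets 3 passed the minimum, and 4 were called, of which Gdnf and Sall1 lay below the minimum and were tested only as listed genes. Of all genes 3.34% were called in this comparison. Igfbp5, an IGF binding protein, was higher by 1.05 (adjusted p = 0.00461) and Slc12a2, a sodium-potassium-chloride cotransporter, lower by 0.53 (adjusted p = 0.0434, held in 12 of 33).

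Gdnf, the ureteric bud signal that depends on Eya1 in the kidney, was low, with the 3 anterior medial libraries at 6.86, 7.73 and 7.27 RPKM and the other libraries at 3.30 or less. It was lower in the posterior palate by 2.28 (adjusted p = 0.00593) and in anterior lateral than in anterior medial pieces, with a difference of -3.53 (adjusted p = 2.70e-04). Anterior medial pieces were also those with the highest Six4 mean and the lowest anterior Eya1 mean. Nerve and Schwann cell markers summed to 38.1 to 61.8 RPKM there, above all other anterior libraries. The part of Six4, Eya1 or these cells in the Gdnf result was not tested. Sall1, a zinc finger factor of the same kidney network, was at most 0.900 RPKM in anterior and reached 6.52 RPKM in posterior libraries, with low medians of 0.176 and 1.57. It was higher in the posterior palate by 2.05 (adjusted p = 0.0203), a call held in 31 of 33 alternatives, with adjusted p-values up to 0.560. Between posterior oral and nasal pieces it was higher in oral by 2.79 (adjusted p = 0.0482), a call held in 2 of 13 alternatives. Fgf10, a mesenchymal growth factor of the palate, was not called along the axis, and was higher in anterior lateral than medial pieces by 2.16 (adjusted p = 0.0462, held in 6 of 13) and in posterior oral than nasal pieces by 2.04 (adjusted p = 0.0158, held in 8 of 13).

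The genes most like each member were those with the highest Pearson r of log2(RPKM + 0.1) over the 25 libraries, among 11913 expressed genes, given as a description since the libraries share compartments and depth. For Eya1 they were Hpse2 (r = 0.911), Mme (0.902) and Alx1 (0.891). Eya4 was most like Col2a1 (0.925), the cartilage collagen, then Barx1 (0.865) and Mkx (0.864). Six4 had Sertad2 (0.912), Ankrd45 (0.908) and Lpcat2 (0.903), and Six5 had Ahdc1 (0.900), Pip5k1c (0.893) and Dak (0.890). Lower values were reached by Eya3 with Chaf1a (0.859), Lrrc8d (0.832) and Urb2 (0.817), by Six2 with Tmem41a (0.780), Ctso (0.754) and Crtap (0.753), and by Eya2 with Tubb4b (0.746), Lrrc23 (0.731) and Max (0.707). Among the members themselves, the most negative values were -0.67 for Eya1 with Six2 and -0.61 for Eya1 with Eya4. Eya1 and Six4 were the most alike, at 0.49.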

How the data were processed

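Total RNA from laser captured palate pieces was amplified (NuGEN Ovation RNA-Seq V2), tagmented with Nextera and sequenced. The authors deposited 1 table of RPKM values for 37406 genes in 25 libraries, made with GeneSpring after duplicate and multiply aligned reads were removed; TopHat and mm9 are named in the submitters' processing notes, and the gene annotation is not given in the sources used here. Reads were amplified without molecular identifiers, and counting errors cover sampling of reads only. Whole read counts were not used: implied library totals were read from the steps between low RPKM values, and 290 of 300 ratios between libraries agreed by way of the reference library. The absolute totals also rest on GENCODE M21 transcript lengths and are estimates.

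Groups and replicate numbers came from the labels. Values were tested as log2(RPKM + 0.1) with limma 3.58.1 (lmFit, eBayes, two-sided) in R 4.3.3, with Benjamini-Hochberg adjustment over all genes tested, at adjusted p under 0.05. Posterior and anterior libraries were pooled over genes with at least 10 RPKM in 6 libraries; pairs of compartments were compared alone over genes with at least 5 RPKM in 3. Contrasts along the axis within a compartment, and between sides, came from 1 fit of 25 libraries. Members and network genes below a minimum were added. The study tested the axis with a pooled Audic-Claverie test, which needs counts, so limma was used for it here. The test recovered changed genes in simulated data with independent normal noise. Those data held no runs or shared embryos, so they do not show how the test behaves on these libraries.

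Named genes are the 7 members, the Dach genes, Six3 and Six6, network genes called in the pooled or a pair comparison, and the 3 most alike genes by Pearson r. The members and lists were chosen with earlier results of these data known. Alternatives were pseudocount 1, median centring, no minimum, replicate number as a block, sequencing run as a covariate, adjustment for compartment or a fit of all 25 libraries, and leaving out each library; leaving out the 2 libraries that stand apart, or the 8 whose alignment names hold another word, was chosen after seeing the data. Results that need 1 other gene are not reported here. Figures used Python 3.11.15 and matplotlib 3.10.9.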

Additional observations from a re-analysis of the deposited data

Results flagged for a closer look

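Six2 in the anterior nasal compartment was 66.5 RPKM in replicate 1, against 26.7, 26.2 and 28.8 in the other replicates, and the gap to the nearest value exceeded Dixon's 95% critical value for 4 samples. In all, 10 genes were examined in that compartment, and chance flags about 1 in 20 groups.

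The oral-nasal difference of Pax3 was more negative in the posterior than in the anterior palate, by -2.12 on the log2 scale (limma interaction term, adjusted p = 0.0305). It was called in 17 of 31 alternatives, with adjusted p-values up to 0.166. Without the 2 libraries that stand apart it was -1.96 (adjusted p = 0.0586).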

How the results depend on the processing

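Eya1 and Eya4 kept their direction and their call in the pooled comparison in 33 of 33 alternatives, with values from -2.53 to -2.06 and from 1.46 to 1.81. Six2 kept its call in 32 of 33, with values from 0.89 to 1.22, and Six4 was called in 7 of 33. Without the 8 libraries whose alignment names hold another word, 192 genes were called. No result reversed. The cause of the changes below was not tested, beyond what each alternative changes by its construction.

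Without an expression minimum, more genes entered the adjustment. The pooled comparison then called 485 genes (288 as reported), anterior lateral against medial 156 (260) with 0 members (1), posterior oral against nasal 11 (134), the posterior-anterior comparison in nasal pieces 1 member (2), the lateral-medial interaction 0 genes (11) and the oral-nasal one 2 (9). With pseudocount 1 the lateral-medial interaction called 19, and after median centring 6, with 2 for the oral-nasal one.

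With sequencing run as a covariate, 143 genes were called in the pooled comparison, 0 with 0 members in anterior lateral against medial, 1 in posterior lateral against medial (0 as reported), 4 in anterior oral against nasal (0) and 15 in posterior oral against nasal. Along the axis, medial pieces kept 1 member (2), lateral pieces 15 genes (103) and 0 members (2), oral pieces 13 genes (61) and 1 member (2), and nasal pieces 34 genes (227) and 0 members. Both interactions called 0. In the fit of all 25 libraries the pairs called 32 with 0 members, 25, 6 and 68 genes.

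Replicate numbers were not taken to pair the samples in the main fits. Of same-numbered pairs, 28 of 84 had deviations correlated over 0.1 (median r = 0.035), and of other pairs 35 of 189 (median r = -0.020). Pairs from the same sequencing run had 15 of 37 (median r = 0.037). Whether the numbers pair some of the samples cannot be told from these values. With the replicate block, anterior lateral against medial called 150 genes and 0 members, nasal pieces along the axis 143 genes and 1 member, and the oral-nasal interaction 4. Without the 2 libraries that stand apart, chosen after seeing the data, the pooled comparison called 456 genes, posterior lateral against medial 1, anterior oral against nasal 6, lateral pieces along the axis 245 and nasal pieces 850.

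Leaving out 1 library at a time gave 50 (without anterior lateral replicate 3) to 185 genes and 0 members in anterior lateral against medial, 0 to 1 (posterior medial replicate 2) in posterior lateral against medial, 0 to 6 (anterior oral replicate 1) in anterior oral against nasal, and 11 (posterior nasal replicate 3) to 59 in posterior oral against nasal. Along the axis, medial pieces ranged from 101 to 1008 genes (posterior medial replicate 3) and 1 to 2 members, lateral pieces from 54 to 190, oral pieces from 35 (anterior oral replicate 1) to 95, and nasal pieces from 84 genes and 0 members (posterior nasal replicate 1) to 381 genes and 2 members. Posterior medial replicate 2 gave the highest counts in the last 3. The lateral-medial interaction ranged from 0 to 36 genes and the oral-nasal one from 1 to 15. Depth limits the low members most: Eya2 stayed under 10 RPKM in every library.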
